A study of Mus musculus with 41 samples.

Results

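Labeled Treg cells are regulatory T cells that carried both a Foxp3-GFP signal and a tdTomato signal when they were sorted, so they expressed Foxp3 and descended from cells in which the Cre recombinase had acted. They were compared between mice with floxed and mice with intact Uhrf1. The libraries were chosen by the genotype and sort gate in their labels, and they make up 11 of the 41 RNA-seq libraries in the series, 6 from fl/fl mice and 5 from controls. Mice of the fl/fl group had the genotype Uhrf1 fl/fl with Foxp3GFP-CreERT2 and the Rosa26Sor CAG-tdTomato reporter. The controls had the genotype Uhrf1+/+ with the same Foxp3GFP-CreERT2 and the same reporter, so both groups carried Cre and received tamoxifen. Mice aged 8 weeks ate tamoxifen chow for 2 weeks and then standard chow for 4 weeks. Cre was driven from the Foxp3 locus and was active only with tamoxifen, and tdTomato therefore marks cells that expressed Foxp3 during the feeding. Cells that lost Foxp3 during the chase fall into another gate, so the labeled gate holds only the cells that still expressed it. Strain and sex were not given in the labels used here.

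UHRF1 binds hemimethylated CpG sites behind the replication fork and recruits the maintenance methyltransferase DNMT1, so that daughter strands regain the methylation of the parent strand. Loss of this copying step dilutes methylation with each division. In Treg cells, stable Foxp3 expression is known to depend on demethylation of a Foxp3 intronic enhancer, and Treg cells pass from a central state, with lymphoid homing genes such as Ccr7, to an effector state driven by factors such as Blimp-1, BATF and MAF. DNA methylation was not measured in these libraries.

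The libraries held 1052731 to 2553989 counts in fl/fl and 1153730 to 2609699 counts in control mice. Labels call them biological replicates, and no pair of libraries agreed within sampling noise. The gate could be checked against markers. Cd3e, Cd4, Foxp3, Il2ra, Ctla4 and Ikzf2 were all present in every library, with Cd4 at 755 to 969 CPM (read counts scaled to library size) in fl/fl and 770 to 872 CPM in control cells. Summed B and plasma cell markers (11 genes) stood at 17.6 to 45.8 CPM in fl/fl and 11.9 to 50.3 CPM in control cells, with Ebf1 at 0 in every library. Summed myeloid markers (18 genes) stood at 31.3 to 107 CPM in fl/fl and 47.4 to 77.3 CPM in control cells, with fl/fl library 3 the highest. Summed NK markers (8 genes) reached at most 0.783 CPM in fl/fl and 1.53 CPM in control cells. Neutrophil markers (9 genes) summed to 4.39 to 16.5 CPM in fl/fl and 1.73 to 6.93 CPM in control cells. Thymocyte markers (5 genes) summed to 8.27 to 33.7 CPM in fl/fl and 9.53 to 19.8 CPM in control cells. Erythroid markers (7 genes) reached at most 1.25 CPM in fl/fl and 2.69 CPM in control cells. Stromal markers (8 genes) summed to 149 to 193 CPM in fl/fl and 183 to 254 CPM in control cells. Among these, Mmp9 reached 16.5 CPM, Cd1d1 32.5 CPM and Pecam1 230 CPM. S100a8, S100a9, Rag1, Rag2 and Alas2 were at 0 throughout. Control libraries 2 and 3 held 400 and 318 CPM of Y-linked transcripts, control library 4 held 2.33 CPM, and the other 8 libraries held none.

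Promoter sequences are shown first for genes the results turn on, because CpG dinucleotides are the sites that UHRF1 and DNMT1 act on. Each is the RefSeq window of 250 bases before to 50 bases after the first listed start (GRCm38.p6), with CpG in capitals. Pydc3 belongs to the PYHIN (interferon-inducible p200) family, and its identifier carries the RefSeq symbol Ifi208. BACH2 is a transcriptional repressor of effector differentiation, alpha-actinin-1 (Actn1) crosslinks actin, Blimp-1 (Prdm1) drives effector differentiation, and TIGIT is an inhibitory receptor of effector Treg cells. The windows lie at chr1:173673415-173673714 (plus strand), chr4:32417185-32417484 (plus), chr12:80260314-80260613 (minus), chr10:44458699-44458998 (minus) and chr16:43664135-43664434 (minus).
Pydc3 promoter: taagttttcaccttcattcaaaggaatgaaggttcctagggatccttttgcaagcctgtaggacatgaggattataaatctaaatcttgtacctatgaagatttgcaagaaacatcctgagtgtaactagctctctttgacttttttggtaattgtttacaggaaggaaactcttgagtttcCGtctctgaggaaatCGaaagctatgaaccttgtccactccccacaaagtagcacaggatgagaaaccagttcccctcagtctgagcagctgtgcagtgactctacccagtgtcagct
Bach2 promoter: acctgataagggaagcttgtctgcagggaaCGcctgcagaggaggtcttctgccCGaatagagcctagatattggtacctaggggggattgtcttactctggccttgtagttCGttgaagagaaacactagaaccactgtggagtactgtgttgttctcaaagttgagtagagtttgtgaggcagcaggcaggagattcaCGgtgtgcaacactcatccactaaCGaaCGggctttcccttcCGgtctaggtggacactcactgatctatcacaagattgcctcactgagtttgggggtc
Actn1 promoter: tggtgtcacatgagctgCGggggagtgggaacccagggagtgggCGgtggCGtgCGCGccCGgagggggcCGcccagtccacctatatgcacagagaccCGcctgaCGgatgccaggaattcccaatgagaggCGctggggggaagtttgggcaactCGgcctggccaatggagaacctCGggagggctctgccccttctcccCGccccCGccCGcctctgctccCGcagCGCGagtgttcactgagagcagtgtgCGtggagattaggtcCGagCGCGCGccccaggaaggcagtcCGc
Prdm1 promoter: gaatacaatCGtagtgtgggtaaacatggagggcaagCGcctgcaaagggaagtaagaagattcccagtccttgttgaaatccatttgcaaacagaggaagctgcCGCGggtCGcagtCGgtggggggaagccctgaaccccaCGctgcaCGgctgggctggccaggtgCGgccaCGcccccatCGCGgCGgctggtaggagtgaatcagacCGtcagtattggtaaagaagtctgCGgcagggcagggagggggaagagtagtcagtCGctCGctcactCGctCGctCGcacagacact
Tigit promoter: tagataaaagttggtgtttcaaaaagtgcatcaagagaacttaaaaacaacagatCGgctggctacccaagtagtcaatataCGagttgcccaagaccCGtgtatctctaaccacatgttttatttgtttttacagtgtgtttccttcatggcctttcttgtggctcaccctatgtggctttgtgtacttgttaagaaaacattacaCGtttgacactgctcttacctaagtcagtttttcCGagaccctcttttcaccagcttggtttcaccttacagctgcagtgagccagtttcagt
Pydc3 held 2 CpG in its window, Tigit 5, Bach2 7, Prdm1 20 and Actn1 24. Among 7876 tested genes with a window, the median was 21 CpG and 8.05% held at most 5. All 8 of the matched members of the PYHIN family held at most 5. Of the 27025 promoters in the table, 1 per gene, the median held 7 CpG. The windows of Bach2 and Prdm1 lie inside the gene spans of the count table. That of Pydc3 ends at 173673714, before the gene's span in the count table starts at 173673911. The counts of Bach2, Prdm1 and Pydc3 are therefore not tied to these starts. The windows of Actn1 and Tigit hold the start of the gene's span, at 80260371 and 43664184 (minus strand).

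Pydc3 was the only gene that passed the main test between fl/fl and control labeled cells, and it fell. It lies on chromosome 1 at 173673911 to 173698392 (mm10, plus strand) in the cluster of PYHIN genes, whose members include the DNA sensor AIM2. Its level ran from 46.3 to 74.8 CPM in the 6 fl/fl libraries (median 56.7), against 125, 122, 121, 102 and 95.1 CPM in controls 1 to 5. Every fl/fl library was below every control library. The log2 fold change was -0.95 ± 0.15 (SE), with an adjusted p = 0.00207 by edgeR's quasi-likelihood test with Benjamini-Hochberg adjustment, and the means were 59.2 ± 11.4 and 113 ± 13.5 CPM (SD, n = 6 and n = 5). It was 1 of 9921 genes tested, 0.0101% of them. The call was lost without controls 2 and 3, the pair with Y-linked reads (adjusted p = 0.0809), where the log2 fold change was -0.87. It passed within numbers 1 to 3 (edgeR, adjusted p = 0.0333) and within numbers 4 and above (adjusted p = 0.0303). Family genes share sequence, and how the authors counted reads that match more than 1 of them was not given in the sources used here. Of 10 PYHIN genes tested, Pydc3 was the 1 called, and Ifi203, the most abundant, averaged 481 CPM in fl/fl and 517 CPM in control cells. At an unadjusted p below 0.05, 2 low members had higher values in fl/fl, the opposite direction. Mnda stood at 0.947 to 9.69 CPM in fl/fl and 0 to 1.15 CPM in control cells (edgeR, adjusted p = 0.303). Ifi204 stood at 8.92, 4.41 and 10.0 CPM in fl/fl libraries 1 to 3 and at 0 in the other fl/fl libraries, against 1.15 CPM in control 2 and 0 in the other controls (edgeR, adjusted p = 0.498).

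The test drew its estimate of spread from all 33 pulse-chase libraries in 6 groups. Fitted alone, the 11 labeled libraries gave 41 calls among 9258 genes (0.443%), 25 higher (0.27%) and 16 lower (0.173%) in fl/fl cells. Libraries numbered 1 to 3 had higher summed levels of cell division genes than those numbered 4 and above in both genotypes, and the count also depended on how these 2 number classes were treated. It was 71 within numbers 1 to 3 (0.716%), 7 within numbers 4 and above (0.0705%) and, in a fit added after seeing the data, 259 with the number class as a covariate in the labeled libraries alone (2.8%). The edgeR fits within a number class drew their spread from all pulse-chase libraries of that class, not from the labeled ones alone. Controls 2 and 3, the pair with Y-linked reads, both lie in numbers 1 to 3. No fl/fl library held such reads, so genotype and Y-linked reads were not balanced, within that class or over all 11 labeled libraries. Sex was not given in the labels, and its part was not tested. Without controls 2 and 3, control 1 was the only control left in numbers 1 to 3, so genotype and number class were not balanced in those fits. The genes below are described by their values in each library, and p-values from the fit of the labeled libraries alone stand beside some of them as an alternative. Several of these genes were named because they passed in that fit, or with their values in view. For them its p-values are no separate support. At an unadjusted p below 0.05 in the 33-library fit, 405 genes were higher in fl/fl (4.08%) and 529 were lower (5.33%). The 2 groups did not overlap, with every fl/fl library above every control, for 65 genes (0.655%), and with every fl/fl library below, for 79 genes (0.796%).

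**Figure D1:**
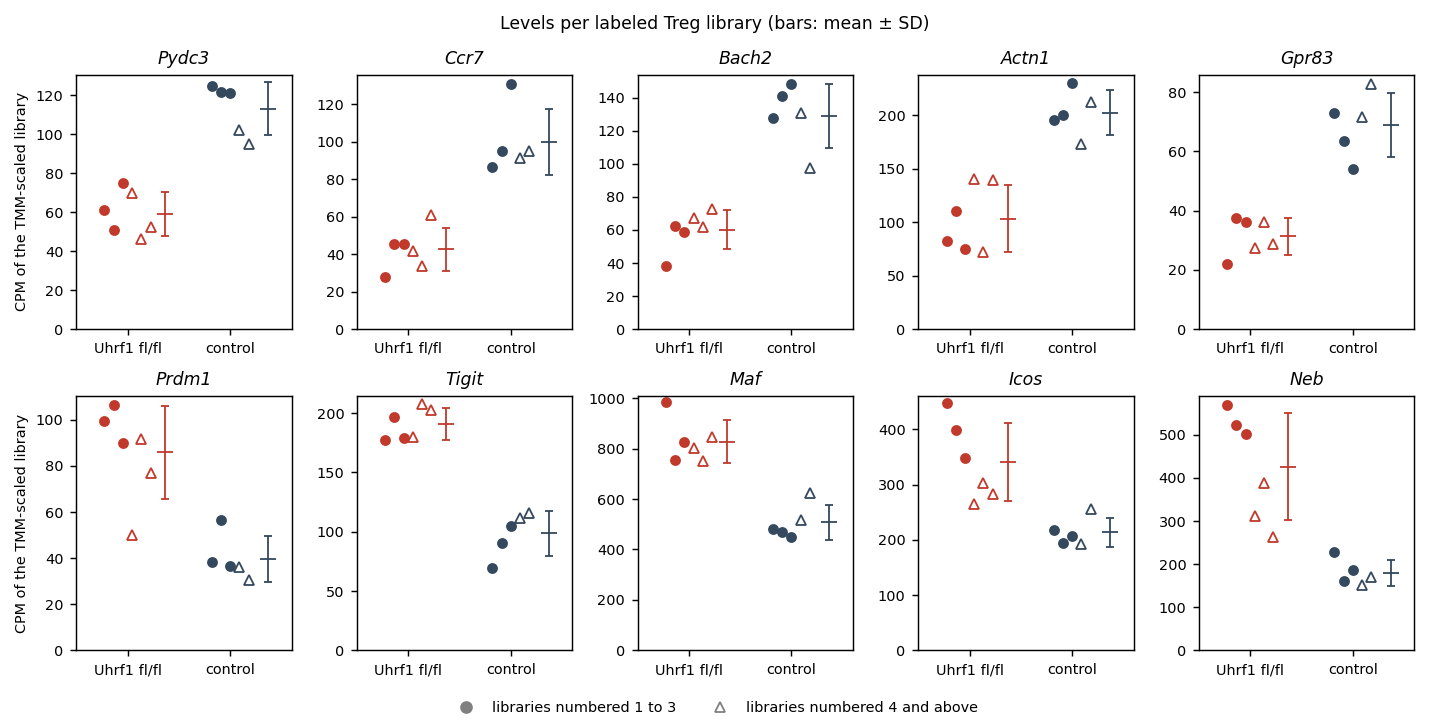
Level of 10 genes in each labeled library (vertical axes, CPM of the TMM-scaled library), fl/fl at left and control at right in each panel; filled circles are libraries numbered 1 to 3, open triangles those numbered 4 and above, and bars give mean ± SD. The groups do not overlap for 9 of the genes, and for Prdm1 the lowest fl/fl library, at 50.2 CPM, lies below control library 2, at 56.7 CPM.

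Genes of lymphoid homing and of the central, less differentiated T cell state had low values in fl/fl cells. The gene lists here and below were chosen with earlier results of these data known, so their counts describe the lists and are no independent test. Of 27 such genes tested, 0 were called, 12 had an unadjusted p below 0.05 and lower values in fl/fl against 5.33% of all genes in that direction, and 0 had higher values at that p. For 8 of the 27 every fl/fl library was below every control, against 0.796% of all genes. The median log2 fold change of the list was -0.47, beside 0.0029 for all genes tested. In numbers 1 to 3 the list median was -0.54, and in numbers 4 and above -0.32. Without controls 2 and 3, 10 of the 27 had an unadjusted p below 0.05 and lower values in fl/fl, against 4.36% of all genes in that fit.

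Ccr7, the chemokine receptor that guides T cells into lymph nodes, stood at 28.1 to 60.8 CPM in fl/fl libraries (median 43.5), against 86.4, 95.4, 131, 91.6 and 95.1 CPM in controls. No fl/fl library reached the lowest control. Its log2 fold change was -1.21 ± 0.26 (edgeR, adjusted p = 0.0617), and adjusted p = 0.000544 in the labeled libraries alone. Bach2, which holds effector genes back, stood at 38.4 to 72.5 CPM in fl/fl (median 62.2), against 128, 141, 148, 130 and 97.7 CPM in controls, again without overlap. Its log2 fold change was -1.10 ± 0.25 (edgeR, adjusted p = 0.0617, and 0.000325 in the labeled libraries alone). In numbers 1 to 3 and in numbers 4 and above, the log2 fold change was -1.36 and -1.02 for Ccr7, and -1.36 and -0.79 for Bach2.

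Actn1 stood at 71.7 to 140 CPM in fl/fl cells (median 96.2), against 196, 200, 230, 174 and 212 CPM in controls. The groups did not overlap, and the log2 fold change was -0.98 ± 0.21 (edgeR, adjusted p = 0.0617). Foxp1, a forkhead factor that keeps T cells quiescent, stood at 211 to 362 CPM in fl/fl and 387 to 432 CPM in control cells. Evl, an actin regulator, stood at 136 to 234 CPM in fl/fl and 246 to 292 CPM in control cells. For both genes the groups lay apart, and adjusted p was 0.0396 for Foxp1 and 0.0427 for Evl in the labeled libraries alone (edgeR).

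Nsg2, a vesicle trafficking protein gene, stood at 74.7 to 142 CPM in fl/fl and 139 to 178 CPM in control cells (log2 fold change -0.75 ± 0.17, edgeR, adjusted p = 0.0633). The ranges met at the top of the fl/fl group, in library 4. Il6ra, the IL-6 receptor alpha chain, stood at 83.2 to 180 CPM in fl/fl and 160 to 230 CPM in control cells. The transcription factor gene Tcf7, among the most abundant of the list, stood at 734 ± 186 CPM in fl/fl and 897 ± 122 CPM in control cells (SD, n = 6 and n = 5) and overlapped too.

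Genes of the effector Treg state had high values in the same fl/fl libraries. Of 33 tested, 0 were called, 15 had an unadjusted p below 0.05 and higher values in fl/fl against 4.08% of all genes in that direction, and 0 had lower values at that p. For 6 of the 33 every fl/fl library was above every control, against 0.655% of all genes. The list median was 0.67, with 31 of the 33 members above 0. In numbers 1 to 3 the median was 0.72, and in numbers 4 and above 0.49. Without controls 2 and 3, 14 of the 33 had an unadjusted p below 0.05 and higher values in fl/fl, against 4.49% of all genes in that fit.

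Prdm1 stood at 50.2 to 107 CPM in fl/fl libraries (median 90.9), against 38.1, 56.7, 36.5, 36.2 and 30.5 CPM in controls. Only fl/fl library 4 lay within the control range. The log2 fold change was 1.11 ± 0.28 (edgeR, adjusted p = 0.123, and 0.0032 in the labeled libraries alone). Tigit stood at 178 to 208 CPM in fl/fl (median 188), against 69.8, 90.8, 105, 112 and 116 CPM in controls, a clear gap between the groups. Its log2 fold change was 0.96 ± 0.34 (edgeR, adjusted p = 0.324, and 0.000325 in the labeled libraries alone).

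Maf, which encodes a transcription factor of IL-10-producing T cells, stood at 750 to 983 CPM in fl/fl (median 813), against 483, 468, 448, 517 and 624 CPM in controls. The groups did not overlap, and the log2 fold change was 0.71 ± 0.23 (edgeR, adjusted p = 0.276, and 0.000544 in the labeled libraries alone). Icos, a costimulatory receptor, stood at 265 to 448 CPM in fl/fl (median 326), against 218, 194, 206, 193 and 256 CPM in controls. The gap was narrow, with the fl/fl minimum just above the control maximum, and the log2 fold change was 0.95 in numbers 1 to 3 and 0.36 in numbers 4 and above.

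Batf, an AP-1 family factor needed for effector Treg cells, stood at 78.6 to 103 CPM in fl/fl and 44.9 to 77.1 CPM in control cells, without overlap (edgeR, adjusted p = 0.143, and 0.0807 in the labeled libraries alone). Nfil3 and Bhlhe40, a pair of transcriptional regulators, and Lag3, an inhibitory receptor gene, had means of 38.8, 171 and 52.4 CPM in fl/fl and 21.5, 93.6 and 20.8 CPM in control cells, with overlapping ranges. Adjusted p was 0.148 for Nfil3 and 0.123 for Lag3 (edgeR), and 0.081 and 0.123 in the labeled libraries alone. Ccr8, a chemokine receptor of tissue Treg cells, averaged 22.9 ± 6.37 CPM in fl/fl and 11.2 ± 5.38 CPM in control cells (SD, n = 6 and n = 5) and overlapped as well. Cxcr3, the receptor for interferon-induced chemokines, stood at 74.8 to 141 CPM in fl/fl and 51.6 to 68.0 CPM in control cells, without overlap (edgeR, adjusted p = 0.459, and 0.0103 in the labeled libraries alone).

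The 2 lists set the libraries apart together. The summed level of the 33 effector Treg genes ran from 8686 to 12389 CPM in fl/fl and from 7019 to 8214 CPM in control libraries. That of the 27 naive and central T cell genes ran from 6005 to 7284 CPM in fl/fl and from 7474 to 8568 CPM in control libraries. On both sums the groups did not overlap. Other list sums lay apart too. That of 28 Th1 and cytotoxic genes ran from 2434 to 3114 CPM in fl/fl and from 2155 to 2383 CPM in control libraries. That of 13 Th17 genes ran from 1738 to 1962 CPM in fl/fl and from 1401 to 1652 CPM in control libraries. Abundant members weigh most in such sums. In the effector list Ahnak stood at 3392 to 4695 CPM in fl/fl and 2928 to 3612 CPM in control cells. Itgb1 stood at 1236 to 2319 CPM in fl/fl and 951 to 1616 CPM in control cells. Both overlapped between the groups (edgeR, adjusted p = 0.719 and 0.834). In bulk libraries, fewer cells of a state and less RNA per cell cannot be told apart.

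**Figure D2:**
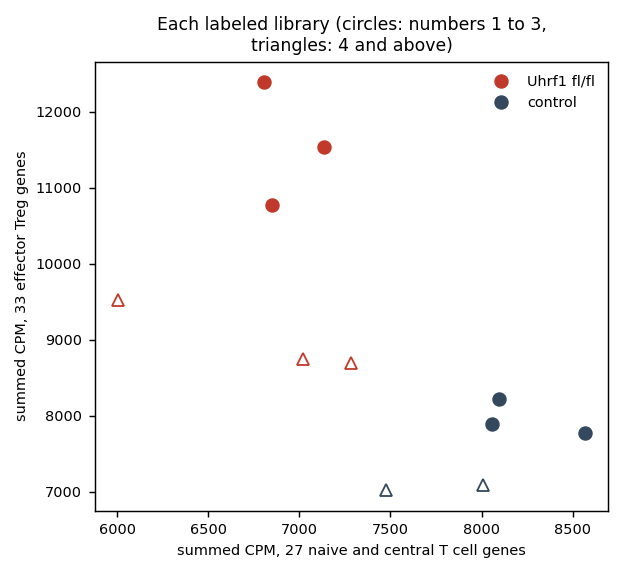
Summed CPM of 33 effector Treg genes (vertical axis) against summed CPM of 27 naive and central T cell genes (horizontal axis), 1 point per labeled library; circles are numbers 1 to 3 and open triangles numbers 4 and above. The 6 fl/fl libraries lie at the upper left (effector sum of at least 8686 CPM) and the 5 controls at the lower right (at most 8214 CPM).

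The Th1 and cytotoxic list, of effector cytokines, granzymes and their regulators, had 24 tested members, of which 10 had an unadjusted p below 0.05 with higher values in fl/fl (4.08% of all genes) and 0 with lower values. The median was 0.51. Without controls 2 and 3, 5 of 26 tested had higher values at that p (4.49% of all genes in that fit) and the median was 0.85. Gzmb, the granzyme B gene, stood at 224, 127, 143, 13.3, 82.8 and 6.59 CPM in fl/fl libraries 1 to 6, against 15.9, 23.0, 17.1, 6.16 and 13.1 CPM in controls. Libraries 4 and 6 of the fl/fl group lay in the control range and the other 4 lay above it. Its log2 fold change was 2.71 ± 0.86 (edgeR, adjusted p = 0.257, and 0.331 in the labeled libraries alone). It passed within numbers 1 to 3 (log2 fold change 3.13, edgeR, adjusted p = 0.00275) and did not within numbers 4 and above (1.99, adjusted p = 0.921).

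Nkg7, a cytotoxic granule gene, stood at 46.6, 36.1, 25.7, 11.4, 22.5 and 7.36 CPM in the same fl/fl libraries, against 6.42, 9.96, 8.57, 4.23 and 3.49 CPM in controls. Only fl/fl library 6 lay in the control range, and the log2 fold change was 1.88 ± 0.55 (edgeR, adjusted p = 0.174, with 0.0383 within numbers 1 to 3 and 0.295 within numbers 4 and above). Ifng, the interferon gamma gene, stood at 4.8 to 13.1 CPM in fl/fl and 0.872 to 4.53 CPM in control cells, without overlap but at a low level (edgeR, adjusted p = 0.349, and 0.285 in the labeled libraries alone). Gzmb was a member of the effector Treg list as well. Among the NK markers, Ncr1 stood at 0.783 CPM in fl/fl library 6, and Klrb1c at 1.53 CPM in control 2 and 0.777 CPM in control 4. Klre1 and Klra8 were at 0 in every library. The summed CD8 markers Cd8a and Cd8b1 stood at 8.55 to 12.5 CPM in fl/fl and 11.8 to 17.7 CPM in control cells. Which cells the Gzmb and Nkg7 reads came from was not tested.

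**Figure D3:**
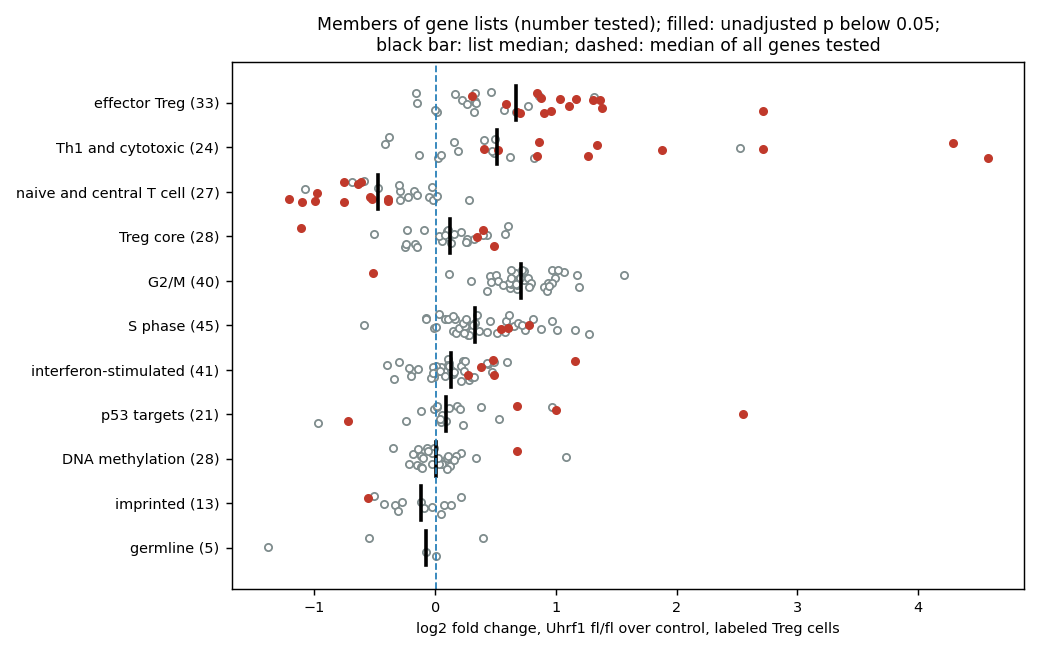
Log2 fold change (horizontal axis, fl/fl over control in labeled cells, 33-library fit) of each tested member of 11 gene lists, 1 row per list; filled points have an unadjusted p below 0.05, black bars are list medians and the dashed line is the median of all 9921 genes. The effector Treg median lies at 0.67 and the naive and central T cell median at -0.47, and the DNA methylation list is centred at 0.0077.

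Several genes outside these lists had separate groups. Neb, which encodes the giant muscle protein nebulin, stood at 262 to 570 CPM in fl/fl (median 445), against 228, 162, 187, 152 and 170 CPM in controls. The groups did not overlap, and the log2 fold change was 1.24 ± 0.25 (edgeR, adjusted p = 0.0617, and 0.0264 in the labeled libraries alone). Serinc3, a membrane protein gene, stood at 679 to 1070 CPM in fl/fl and 527 to 670 CPM in control cells. Plk3, a stress-responsive polo-like kinase, stood at 48.9 to 77.5 CPM in fl/fl and 17.4 to 39.6 CPM in control cells, and here too the groups lay apart.

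Mtap6, a microtubule-stabilising protein gene, stood at 43.8 to 68.6 CPM in fl/fl and 22.6 to 37.4 CPM in control cells. Athl1, a glycosidase gene, stood at 39.8 to 52.5 CPM in fl/fl and 22.3 to 32.0 CPM in control cells, also without overlap. Adjusted p lay between 0.0617 (Athl1) and 0.158 (Serinc3) for Serinc3, Plk3, Mtap6 and Athl1 (edgeR, 33 libraries).

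Ifngr2, a chain of the interferon gamma receptor, stood at 14.3 to 18.9 CPM in fl/fl (median 16.8), against 31.3, 38.7, 39.2, 32.3 and 25.3 CPM in controls. The groups did not overlap, with a log2 fold change of -1.01 ± 0.24 (edgeR, adjusted p = 0.0731). Vav3, a guanine nucleotide exchange factor gene, stood at 26.7 to 45.9 CPM in fl/fl and 53.9 to 62.1 CPM in control cells. Nnt, the mitochondrial transhydrogenase gene, stood at 26.5 to 35.2 CPM in fl/fl and 37.5 to 58.5 CPM in control cells, again apart (log2 fold change -0.70 ± 0.15, edgeR, adjusted p = 0.0617). Nnt is known to be partly deleted in the C57BL/6J substrain; strain was not given in the labels, and its part in the result was not tested.

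Ift80, an intraflagellar transport gene, and Smc4, a condensin subunit gene, are neighbours on chromosome 3, with starts 168 bases apart on opposite strands (mm10). Ift80 stood at 161 to 346 CPM in fl/fl (median 279), against 531, 494, 397, 493 and 454 CPM in controls. Smc4 stood at 840 to 1088 CPM in fl/fl and 1207 to 1533 CPM in control cells. For both genes every fl/fl library was below every control, and the log2 fold changes were -0.85 ± 0.32 for Ift80 (edgeR, adjusted p = 0.397) and -0.51 ± 0.11 for Smc4 (edgeR, adjusted p = 0.0617).

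Of the Treg core list, 28 genes were tested, 0 were called, 3 had an unadjusted p below 0.05 with higher values and 1 with lower values, beside 4.08% and 5.33% of all genes. The median was 0.12. Foxp3 (chromosome X, 7579676 to 7595243) stood at 317 to 508 CPM in fl/fl (median 359.6), against 388, 400, 397, 428 and 418 CPM in controls. Of the 6 fl/fl libraries, 5 lay below every control and fl/fl library 5 lay above all of them, and the log2 fold change was -0.094 ± 0.35 (edgeR, adjusted p = 0.96). The identifier in the Foxp3 row is that of a neighbouring gene in the reference names, so the row was taken by its symbol.

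Gpr83, a receptor gene marking Treg cells, stood at 21.9 to 37.4 CPM in fl/fl (median 32.4), against 72.8, 63.6, 54.1, 71.6 and 82.9 CPM in controls, without overlap. Its log2 fold change was -1.11 ± 0.43 (edgeR, adjusted p = 0.417, and 0.00114 in the labeled libraries alone). Tnfrsf1b, the TNF receptor 2 gene, stood at 348 to 423 CPM in fl/fl and 258 to 341 CPM in control cells, without overlap (edgeR, adjusted p = 0.425, and 0.0502 in the labeled libraries alone). Capg, an actin-capping gene, averaged 183 ± 26.7 CPM in fl/fl and 131 ± 31.9 CPM in control cells (SD, n = 6 and n = 5), with overlap. Il2ra, the IL-2 receptor alpha chain, averaged 459 ± 55.7 CPM in fl/fl and 546 ± 64.3 CPM in control cells, and Ikzf2, the Helios gene, 1506 ± 135 CPM in fl/fl and 1399 ± 151 CPM in control cells (SD, n = 6 and n = 5), with overlap in both.

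Uhrf1 (mm10, chromosome 17, 56303321 to 56323486, plus strand), the targeted gene, stood at 88.9, 68.9, 74.8, 10.4, 17.5 and 19.2 CPM of the total count in fl/fl libraries 1 to 6. In controls 1 to 5 it stood at 60.4, 63.2, 100.7, 15.5 and 11.3 CPM of the total count. The values of both groups cover the same span, and in both groups the libraries numbered 1 to 3 were above those numbered 4 and above. Over the whole groups the log2 fold change was -0.15 ± 0.60 (edgeR, adjusted p = 0.961), so the gene's total count does not separate the genotypes. Which exons were floxed is not stated in the labels, and 1 count per gene carries no exon information.

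Uhrf1 is a gene of dividing cells, and the division genes showed the same split by number. The summed level of 40 G2/M genes was 6309, 4269, 5199, 1631, 1591 and 1849 CPM in fl/fl libraries 1 to 6 and 3075, 3791, 3927, 1824 and 1968 CPM in controls 1 to 5. Every fl/fl library numbered 1 to 3 lay above every control numbered 1 to 3, and in numbers 4 and above the highest fl/fl library lay between the 2 controls. Between the 2 number classes, with genotype in the fit of the labeled libraries alone, 925 of 9258 genes were called (9.99%). What the numbers stand for is not stated in the labels. Both classes hold both genotypes, but controls 2 and 3, with Y-linked reads, both lie in numbers 1 to 3. The part of that imbalance in differences within or between the classes was not tested. The genotype effect differed between the classes for 4 genes (0.0432%), with 443 at an unadjusted p below 0.05 (4.79%), in an edgeR test added after seeing the data.

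Set against the sum of 45 S phase genes, Uhrf1 made up 2.84, 2.92, 2.57, 0.964, 1.48 and 1.54% in fl/fl libraries 1 to 6 and 3.90, 3.19, 4.58, 1.58 and 1.10% in controls 1 to 5. The mean log2 ratio was -5.72 ± 0.65 in fl/fl and -5.32 ± 0.88 in control cells (SD, n = 6 and n = 5), a difference of -0.40 (2-sided exact permutation test, 462 splits, p = 0.396). Within numbers 1 to 3 the groups did not overlap and the difference was -0.47 (exact p = 0.1, the smallest that 3 against 3 can give). Within numbers 4 and above it was -0.02 (exact p = 0.9).

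**Figure D4:**
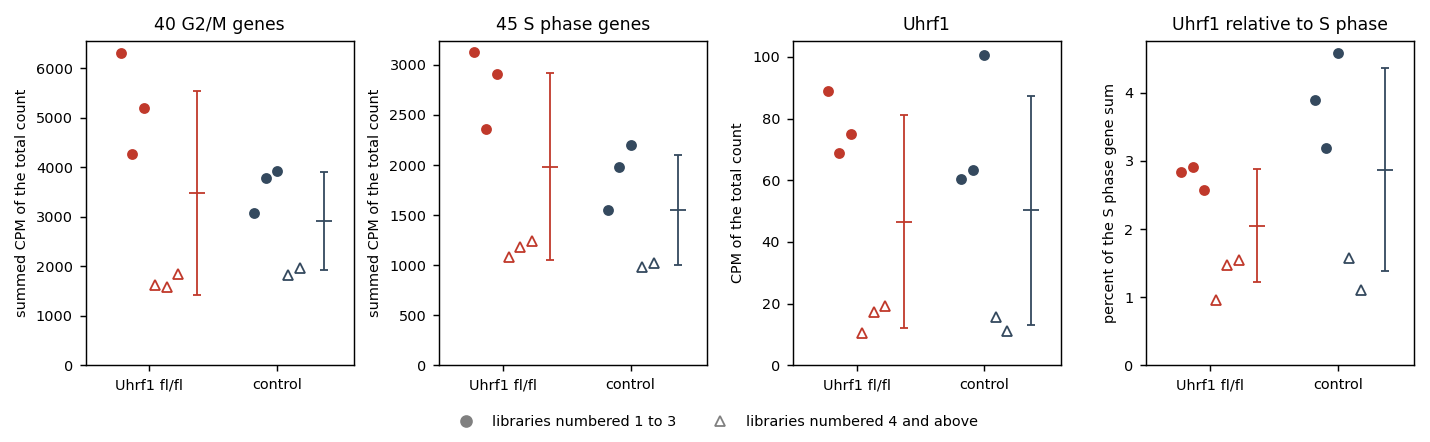
Summed CPM of 40 G2/M and 45 S phase genes, Uhrf1 CPM, and Uhrf1 as a percentage of the S phase sum (vertical axes) in each labeled library, fl/fl at left and control at right; circles are numbers 1 to 3, open triangles numbers 4 and above, bars mean ± SD. In both genotypes the libraries numbered 1 to 3 lie above the others, and the highest G2/M sum is 6309 CPM in fl/fl library 1.

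The division lists had positive medians without a called member. Of 40 G2/M genes tested, 39 had a positive log2 fold change, 0 had an unadjusted p below 0.05 with higher values, and 1, Smc4, had lower values at that p. The list median was 0.71, with 1.02 in numbers 1 to 3 and 0.33 in numbers 4 and above. Without controls 2 and 3 the median was 1.61, and 3 of the 40 had higher values at that p, against 4.49% of all genes in that fit. Of the controls with high division sums that fit kept only control 1, beside fl/fl libraries 1 to 3. Genotype and number class were therefore not balanced in it, and their parts in that median were not tested. Mki67, the gene of the proliferation antigen Ki-67, stood at 1653, 1110, 1314, 180, 209 and 195 CPM in fl/fl libraries 1 to 6, against 510, 725, 903, 155 and 152 CPM in controls. Within each number class the fl/fl libraries were the higher ones, and over all libraries the groups overlapped (log2 fold change 0.66 ± 0.73, edgeR, adjusted p = 0.843).

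Top2a, the topoisomerase of dividing cells, stood at 702, 411, 581, 64.4, 80.4 and 89.5 CPM in fl/fl libraries 1 to 6 and 206, 318, 349, 55.0 and 66.3 CPM in controls. The lowest fl/fl library numbered 4 and above lay between the 2 controls of that class. Of 45 S phase genes, 3 had an unadjusted p below 0.05 with higher values, among them Cdt1, a replication licensing gene, at 34.2 ± 3.28 CPM in fl/fl and 23.6 ± 9.07 CPM in control cells (SD, n = 6 and n = 5). The share over all genes was 4.08%. The S phase median was 0.33. Without controls 2 and 3, which were among the controls with high division sums, 11 of the 45 had higher values at that p (4.49% of all genes in that fit) and the median was 0.90. Number class was unbalanced between the genotypes in that fit, as for the G2/M list.

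Genes that write, read and erase DNA methylation were centred near 0. Of 28 tested, 1 had an unadjusted p below 0.05 with higher values (Gadd45b) and 0 had lower values, beside 4.08% and 5.33% of all genes, and the median was 0.0077. Dnmt1, the maintenance methyltransferase, averaged 374 ± 119 CPM in fl/fl and 323 ± 51.2 CPM in control cells (SD, n = 6 and n = 5), and it followed the number classes. Dnmt3a, a de novo methyltransferase, stood at 182 to 219 CPM in fl/fl and 197 to 262 CPM in control cells, with overlap.

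Germline genes are silenced by promoter methylation in body cells and are a common readout of its loss. Of 45 listed, 25 had 0 counts in all 11 labeled libraries and 5 were abundant enough to test. None of the 5 had an unadjusted p below 0.05. Their summed level over the 45 genes was 60.6 to 66.1 CPM in fl/fl and 52.1 to 73.4 CPM in control cells, so the fl/fl range lay inside the control range. Xlr4b, an X-linked member, was the most abundant of the 5 and averaged 30.0 ± 5.90 CPM in fl/fl and 22.1 ± 8.76 CPM in control cells (SD, n = 6 and n = 5, edgeR, adjusted p = 0.598). At these depths a count of a few reads per library is the limit of what could be seen for the untested members.

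Of 13 imprinted genes tested, 1 had an unadjusted p below 0.05 and lower values, beside 5.33% of all genes. Inpp5f, a phosphatase gene with an imprinted isoform, averaged 115 ± 23.4 CPM in fl/fl and 169 ± 30.2 CPM in control cells (SD, n = 6 and n = 5, edgeR, adjusted p = 0.498). Of 21 p53 targets tested, 3 had an unadjusted p below 0.05 with higher values and 1 with lower values, beside 4.08% and 5.33% of all genes, and the median was 0.087. Pmaip1, the BH3-only gene NOXA, stood at 34.3 to 43.0 CPM in fl/fl and 14.2 to 22.7 CPM in control cells, without overlap (edgeR, adjusted p = 0.167, and 0.0103 in the labeled libraries alone). Sesn1, a stress-induced sestrin, had the opposite order, 42.6 to 70.9 CPM in fl/fl and 75.1 to 103 CPM in control cells. Cdkn1a, the p21 gene, stood at 8.23, 7.05, 5.72, 0.947, 2.05 and 2.32 CPM in fl/fl libraries 1 to 6 and at 0 to 1.51 CPM in control cells.

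Of the IL-2 and STAT5 list, 17 genes were tested, 4 had an unadjusted p below 0.05 with higher values (4.08% of all genes) and 1, the survival gene Mcl1, with lower values (5.33%). Pim1, a survival kinase gene induced by STAT5, stood at 196 to 327 CPM in fl/fl and 170 to 189 CPM in control cells, without overlap (log2 fold change 0.48 ± 0.14, edgeR, adjusted p = 0.169). Of 41 interferon-stimulated genes, 5 had an unadjusted p below 0.05 with higher values (4.08% of all genes) and 0 with lower values, and the median was 0.13. Iigp1, an immunity-related GTPase gene, averaged 165 ± 35.4 CPM in fl/fl and 118 ± 15.9 CPM in control cells (SD, n = 6 and n = 5), with overlap. Of 37 oxidative phosphorylation genes 1 was higher and 1, Nnt, was lower at that p, again beside 4.08% and 5.33%, with a median of 0.0093.

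Inhibitory receptor genes lay in both directions. Of 14 tested, 3 had an unadjusted p below 0.05 with higher values, Tigit and Lag3 among them, and 1 with lower values, beside 4.08% and 5.33% of all genes. Havcr2, the TIM-3 gene, stood at 30.9, 17.6, 19.5, 0, 5.74 and 4.26 CPM in fl/fl libraries 1 to 6, against 0.902 to 2.30 CPM in controls. Of the 6 fl/fl libraries, 5 were above all controls and library 4 was at 0. Cd200, an immunoglobulin superfamily ligand gene, averaged 39.3 ± 9.48 CPM in fl/fl and 63.3 ± 17.0 CPM in control cells (SD, n = 6 and n = 5), with overlap. Ccr6, a homing receptor of Th17 and some Treg cells, averaged 11.1 ± 5.82 CPM in fl/fl and 21.2 ± 5.73 CPM in control cells (SD, n = 6 and n = 5), with overlap.

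Whether the genotype difference in labeled cells is particular to them was tested against the other sorted populations of the same experiment. Ex-Foxp3 cells kept tdTomato without GFP, and post-tamoxifen Treg cells had GFP without tdTomato. Between genotypes, 18 of 9921 genes were called in ex-Foxp3 cells (0.181%) and 717 in post-tamoxifen cells (7.23%). Against ex-Foxp3 cells, 0 of 9921 genes differed in genotype effect by edgeR's interaction test, with 236 (2.38%) at an unadjusted p below 0.05 and 0 by DESeq2. Against post-tamoxifen cells, 2 genes did (0.0202%), with 767 (7.73%) at an unadjusted p below 0.05. Neither fit used the library numbers, which the 3 populations share. With the number within each genotype as a replicate block, 0 genes were called against ex-Foxp3 cells and 6 against post-tamoxifen cells.

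The 2 genes called in the fit without a block were guanylate-binding proteins, interferon-induced GTPases of pathogen defence. Gbp1 averaged 8.05 ± 3.08 CPM in fl/fl and 10.8 ± 3.82 CPM in control labeled cells (SD, n = 6 and n = 5). Its genotype log2 fold change was -0.37 ± 0.47 in labeled and 3.46 ± 0.55 in post-tamoxifen cells, a difference of -3.83 ± 0.72 (edgeR, adjusted p = 0.02, and 0.0675 without labeled control 5). Gbp3 averaged 172 ± 23.0 CPM in fl/fl and 146 ± 14.9 CPM in control labeled cells, with genotype log2 fold changes of 0.24 ± 0.13 in labeled and 1.30 ± 0.14 in post-tamoxifen cells, a difference of -1.06 ± 0.19 (edgeR, adjusted p = 0.014). Gbp genes share sequence, and their separate values are uncertain.

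The genotype log2 fold changes of the leading genes can be set side by side in the 3 populations. Pydc3 had log2 fold changes of -0.95 ± 0.15 in labeled, -0.55 ± 0.14 in ex-Foxp3 and -1.06 ± 0.15 in post-tamoxifen cells. Bach2 had -1.10 ± 0.25, -1.09 ± 0.24 and -1.02 ± 0.23 in the same order, and Actn1 -0.98 ± 0.21, -0.96 ± 0.21 and -0.77 ± 0.20. Prdm1 had 1.11 ± 0.28, 0.58 ± 0.29 and 1.35 ± 0.31. Athl1 had 0.73 ± 0.17 in labeled, 0.19 ± 0.17 in ex-Foxp3 and 0.02 ± 0.17 in post-tamoxifen cells, and the difference from post-tamoxifen cells did not pass (0.71 ± 0.24, edgeR, adjusted p = 0.524). The effector Treg list median was 0.67 in labeled, 0.56 in ex-Foxp3 and 1.24 in post-tamoxifen cells. That of the naive and central list was -0.47, -0.48 and -0.49, and that of the G2/M list 0.71, 0.33 and 2.16, in the same order. These populations came from the same experiment and were fitted together, and their effects are not independent evidence of each other.

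**Figure D5:**
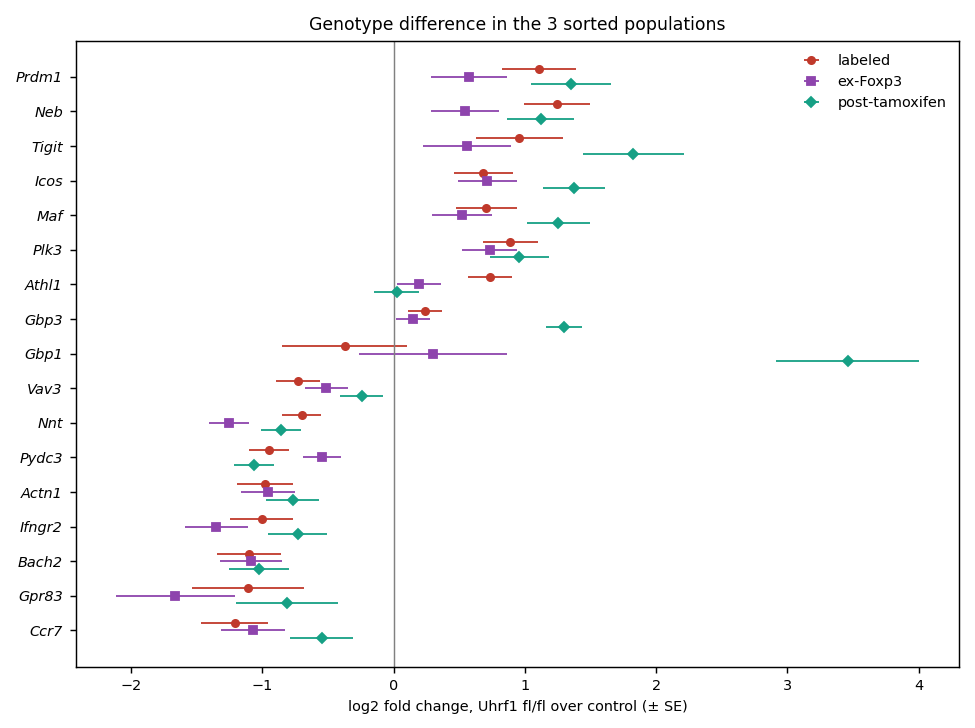
Genotype log2 fold change (horizontal axis, fl/fl over control, ± SE) of 17 genes in labeled (circles), ex-Foxp3 (squares) and post-tamoxifen (diamonds) cells. Gbp1 and Gbp3 have post-tamoxifen values of 3.46 and 1.30 far from their labeled values, and the other 15 genes keep 1 sign in all 3 populations.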

How the data were processed

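Sorted cells were extracted with the AllPrep DNA/RNA Micro Kit, and sequencing libraries used the SMARTer Stranded Total RNA-Seq Kit v2, per the labels' protocols. The tools named in the submitters' processing notes are bcl2fastq 2.17.1.14 and TopHat2 2.1.0, with mm10 (GRCm38) as the build. The authors deposited raw counts per gene for 41 libraries and 19434 genes. The annotation and the settings of strand and counting are not stated there. Genes were taken by symbol, because 3411 identifiers carry another symbol in the reference.

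The main test was edgeR 4.0.16 in R 4.3.3 on 33 pulse-chase libraries in 6 groups: TMM factors, the default filter by group, robust quasi-likelihood F-tests, 2-sided, and Benjamini-Hochberg adjustment over 9921 genes at 0.05. The common biological coefficient of variation was 0.215. Gene levels are CPM of the TMM-scaled library, and marker sums, list sums and marker levels are CPM of the total count. Alternatives used DESeq2 1.42.0, limma 3.58.1, other scaling factors and filters, the labeled libraries alone, a replicate block, number classes and libraries left out (controls 2 and 3 in all 3 populations). The pipeline was tested on simulated data. Promoters came from RefSeq.

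Members, lists and tests were chosen with earlier results of these data known. The naming rule takes Uhrf1, Foxp3, the called gene, the 8 largest changes per direction called both with a replicate block and in the labeled libraries alone (mean log2 CPM of at least 4), and per list the 4 smallest p and the 2 most abundant others. The text gives a part of these. Outside that rule, and chosen with values in view, are Bhlhe40, Cxcr3, Foxp1, Il6ra, Gbp1, Gbp3, Epas1, Podnl1, Lrig1 and Slc33a1.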

Additional observations from a re-analysis of the deposited data

Results flagged for a closer look

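Among 6 or 5 libraries of a group, 1 library stood apart from the rest for 8 of 146 groups of values looked at, near the 1 in 20 that chance gives. Foxp3 stood at 508 CPM in fl/fl library 5, Prdm1 at 56.7 CPM and Ccr7 at 131 CPM in control libraries 2 and 3, Gbp1 at 17.4 CPM in control library 5, and Lrig1 at 236 CPM in control library 4. Summed myeloid markers stood at 107 CPM in fl/fl library 3 and at 77.3 CPM in control library 1. Summed NK markers stood at 0.783 CPM in fl/fl library 6 and at 0 in the other fl/fl libraries.

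The genotype difference of Gbp1 and Gbp3 differed between labeled and post-tamoxifen cells, by -3.83 and -1.06 on the log2 scale (edgeR interaction test, adjusted p = 0.02 and 0.014).

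The genotype effect differed between number classes for 4 genes in the labeled libraries, given as the effect in numbers 1 to 3 minus that in numbers 4 and above. Controls 2 and 3, with Y-linked reads, are in the first class, and their part in these differences was not tested. Epas1, a hypoxia-inducible factor gene, stood at 133, 64.8 and 103 CPM in fl/fl libraries 1 to 3 and 14.3, 13.8 and 22.6 CPM in controls 1 to 3. In numbers 4 and above it stood at 36.0, 47.1 and 21.7 CPM in fl/fl and at up to 61.1 CPM in control cells, so the groups lay apart in the first class only (difference 3.08 ± 0.44, edgeR, adjusted p = 0.000704). Podnl1, a small proteoglycan gene, stood at 133 to 140 CPM in fl/fl and 34.1 to 51.3 CPM in control cells in numbers 1 to 3, and at 60.6 to 80.2 CPM in fl/fl and 73.9 to 76.8 CPM in control cells in numbers 4 and above (difference 1.76 ± 0.26, edgeR, adjusted p = 0.000333). Lrig1, a negative regulator of growth factor receptors, stood at 80.2, 99.6 and 114 CPM in fl/fl libraries 1 to 3 and 217 to 220.0 CPM in controls 1 to 3, and at 221, 171 and 288 CPM in fl/fl libraries 4 to 6 and 236 and 216 CPM in controls 4 and 5 (difference -1.13 ± 0.23, edgeR, adjusted p = 0.0293). Slc33a1, an acetyl-CoA transporter gene, stood at 16.5, 11.9 and 18.1 CPM in fl/fl libraries 1 to 3 and 36.6, 28.4 and 21.7 CPM in controls 1 to 3. In numbers 4 and above the order was turned round, with 32.2, 27.9 and 29.1 CPM in fl/fl and 12.3 and 7.85 CPM in control cells (difference -2.37 ± 0.48, edgeR, adjusted p = 0.0293).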

How the results depend on the processing

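The count of calls between fl/fl and control labeled cells depended on the fit. It was 1 with TMM, RLE and upper quartile factors and without a count filter, 17 with at least 50 counts in 5 libraries, 51 with DESeq2, 41 in the labeled libraries alone, 51 with limma and quality weights, 71 in numbers 1 to 3, 7 in numbers 4 and above, 0 without controls 2 and 3, and 259 with the number class as a covariate, added after seeing the data; the cause was not tested. Leaving out 1 library gave 1 to 9 calls, with 9 without fl/fl library 4 or 6, 3 without control 5 and 2 without fl/fl library 3. With the replicate number as a block it was 149 in 33 libraries and 180 in the labeled libraries alone; same-numbered libraries correlated at 0.0816 to 0.294 and not every one correlated best with its own number, so the numbers were not taken as pairs. The difference from post-tamoxifen cells gave 6 calls with the library number within each genotype as a replicate block and 1 to 2 when 1 library was left out (1 without control 5). The log2 fold change of Uhrf1 was -0.15, and 0.0113 and 0.0666 with the replicate block in 33 and in labeled libraries, 0.0268 in numbers 1 to 3, 0.228 in numbers 4 and above, 0.643 without controls 2 and 3, 0.0979 with the class covariate, and -0.411 to 0.279 without 1 library; none passed. Its ratio to S phase genes was 0.00348 without controls 2 and 3, and -0.698 to -0.184 without 1 library. In numbers 4 and above Dnmt1 was at -0.0369, Epas1 at -0.507 and Podnl1 at -0.057. Slc33a1 was at -0.907 in numbers 1 to 3, -0.0385 with limma and -0.136 to 0.31 without 1 library, against 0.03 in the main fit. Of 1423 alternative values of 60 of the named genes, 1183 kept the sign and outcome of the main fit. Another 219 kept the sign and newly passed the threshold, and 20 changed sign. The 1 value that no longer passed was that of Pydc3 without controls 2 and 3 (-0.87). Of 672 list medians, 665 moved by less than the spread between libraries. Low genes such as Havcr2 and Ifng rest on few reads.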
